A study of Rattus norvegicus with 4 samples.

Results

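The genes described here are 10 genes of the vascular endothelial growth factor (VEGF) family and of the cellular response to low oxygen: Vegfa, Vegfb, Pgf, Hif1a, Epas1, Arnt, Egln1, Egln3, Vhl and Adm. They were chosen by symbol, with earlier results of these data known. All 14 probe sets annotated to exactly 1 of these symbols were taken, out of 20826 probe sets with 1 gene symbol (14217 genes) on the array. The tissue was the soleus, a slow postural muscle of the hindlimb, from male Wistar rats that were 10 weeks old when the diets began (the labels give an age of 14 weeks). Rats ate a modified AIN-93G control diet with corn oil in place of soybean oil, or an AIN-93G diet with 0.05% genistein (0.5 g per kg), a soy isoflavone, over 24 days. The sciatic nerve of the left leg was excised on day 14, with sham surgery on the right, and muscle was collected 10 days after that. Whether the genistein diet also had corn oil is not stated. RNA of 8 rats was pooled per group and put on 1 array, giving a sham and a denervated pool for each diet. Within a diet both pools came from the same rats, 1 leg each. With 1 array per group the values carry no replicate error and no test was possible, so all counts are by size of difference on these 4 arrays.

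Hif1a and Epas1 encode the oxygen-sensitive alpha subunits HIF-1α and HIF-2α, and Arnt encodes their constant partner. In the presence of oxygen the prolyl hydroxylases encoded by Egln1 and Egln3 modify the alpha subunits, and the product of Vhl then marks them for degradation. In low oxygen the pair binds a short DNA core and raises transcription of targets such as Vegfa, Adm and Egln3. VEGF-A, made largely by the fibres in muscle, maintains the capillaries around them, while VEGF-B and placental growth factor (Pgf) bind the receptor encoded by Flt1. Much of the control of HIF-1α and HIF-2α acts on the protein, which these arrays do not measure.

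The upstream sequence of Vegfa is shown because Vegfa had the largest ratio between sham and denervated muscle among the members above the floor. It is the 250 bases before the RefSeq start of the gene on GRCr8, chr9:22452604-22452853, plus strand, and the capitals mark GGGCGG, the GC box bound by Sp1-type factors, a motif added after the sequence was read.
Vegfa: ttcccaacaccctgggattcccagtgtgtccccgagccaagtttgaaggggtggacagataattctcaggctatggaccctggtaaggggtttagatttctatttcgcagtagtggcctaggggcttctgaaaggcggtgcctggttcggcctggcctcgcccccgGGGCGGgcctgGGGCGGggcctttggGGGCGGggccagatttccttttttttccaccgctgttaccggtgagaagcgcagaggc
This window held 3 GC boxes and 0 matches to the hypoxia response core, searched as ACGTG or GCGTG on both strands. Sequence farther upstream was not searched, so the 0 does not mean that Vegfa lacks a hypoxia response element. Of all 33469 RefSeq windows of the same 250 bases, 36.7% held a core match and 30.5% a GC box, on either strand. A window was given for all 10 genes, and 5 of them had a core match. Vegfa had another window, with 0 core matches and 0 GC boxes, that was not outside the annotated span of the gene. The windows of Vegfb, Hif1a, Epas1 and Adm were also not outside the annotated span of their gene.

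Stretches of 30 bases around the core matches of the 5 genes are shown to compare their cores, with the stretch around 2 GC boxes of Epas1, which had 0 core matches. Capitals mark the cores (read as CACGC for GCGTG on the other strand) and GC boxes (CCGCCC on the other strand), a box being cut short at the end of the Egln1 stretch.
Vegfb, chr1:213607203-213607232, minus strand: cgggtggggagcGCGTGtttaggtcacatg
Pgf, chr6:110557884-110557913, minus strand: ccctgcgggggtCACGCgcactcaggtctc
Hif1a, chr6:98359657-98359686, plus strand: cacacagacgagCACGTGagctgggcagct
Hif1a, chr6:98359722-98359751, plus strand: tggctgagagcaACGTGggctggggtgggg
Arnt, chr2:185686649-185686678, plus strand: ccatggtatgggGCGTGtcttctcccccag
Egln1, chr19:69804720-69804749, minus strand: gcccggcccgccGCGTGcgcgcggcccCCG
Epas1, chr6:13624818-13624847, minus strand: ttgcctggagccCCGCCCcggccCCGCCCc
Of the 3 genes at least 2-fold lower in denervated muscle on both diets, the Vegfb window had 1 core match and the Vegfa and Epas1 windows had 0. A match describes the letters only.

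Signals are the linear units the authors deposited, and a floor was set at the 40th percentile of all signals, 78.9 units, below which values have no order. Of the 10 genes, 8 were above the floor on all 4 arrays, Pgf on some arrays and Arnt on none. Between 58.5% and 60.8% of all probe sets were above the floor on each array. Chrna1, the muscle acetylcholine receptor subunit that accumulates after nerve loss, read 1589 and 1860 units in the sham pools and 16186 and 20550 in the denervated pools, which goes with the titles. The treatment field of 2 samples contradicts their titles. The slow-fibre genes Myh7 and Tnni1 that mark soleus read at least 16382 units on every array. As a guide to scatter, the log2 ratios of probe sets of a gene had an SD about their gene mean of 0.36 for denervation on the control diet and 0.37 on genistein. For the diet ratio it was 0.27 in sham and 0.25 in denervated muscle. Probe sets share arrays, so this SD leaves out differences between pools. RNA integrity, read from the 3′ to 5′ ratio of actin probe sets (higher when RNA is degraded), gave 2.08 and 2.32 in the sham pools. It gave 3.79 in control denervated and 2.76 in genistein denervated muscle. Its part in the ratios below was not tested.

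Denervated soleus had less Vegfa, Vegfb and Epas1 mRNA than sham soleus on both diets. Vegfa was 4.28-fold lower on the control diet and 4.17-fold lower on genistein. Vegfb was 3.26-fold and 3.14-fold lower, and Epas1 3.04-fold and 2.24-fold. Hif1a and the prolyl hydroxylase gene Egln1 were lower by less than 2-fold, while Vhl, Pgf and Adm read higher in denervated muscle. Of the 9 measured genes, those above the floor on at least 1 array compared, 3 were at least 2-fold lower on the control diet, where 7.63% of all genes were and 12.7% were past 2-fold in either direction. On genistein 3 were at least 2-fold lower, against 6.57% of all genes, and 1 (Adm) at least 2-fold higher, against 4.96% (11.5% in either direction). On the control diet 0 were at least 2-fold higher, against 5.04%. The median log2 ratio of the 9 genes was -0.66 on the control diet and -0.63 on genistein, and that of all measured genes was 0.00 and 0.02. At 1.5-fold, 5 of 9 were lower on the control diet and 5 of 9 on genistein, where 17.7% and 15.4% of all genes were. Because the genes were chosen with earlier results of these data known, these shares describe the chosen genes and test nothing.

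**Figure D1:**
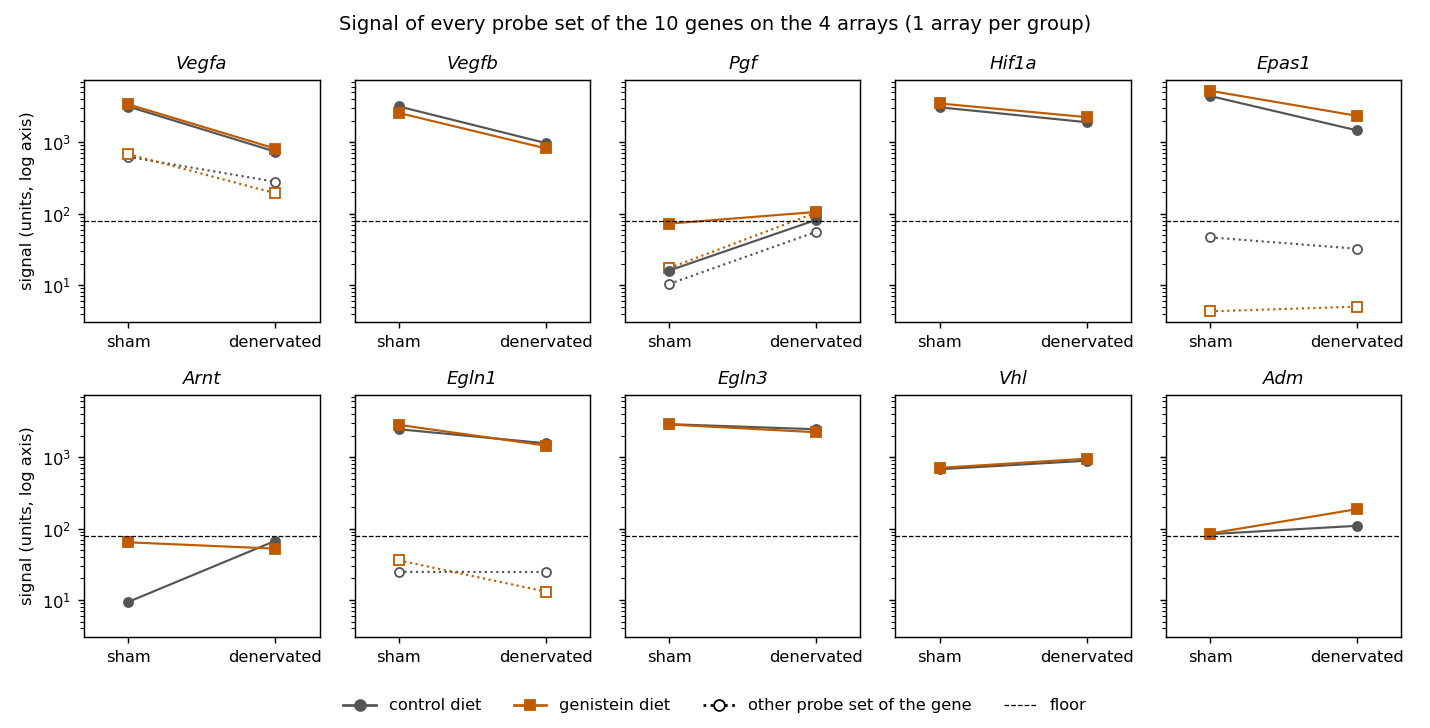
Signal in deposited units (log axis) of all 14 probe sets in sham and denervated soleus, grey circles for the control diet and orange squares for genistein, 1 array per point. Filled symbols with solid lines are the probe set that represents the gene, open symbols with dotted lines are other probe sets, and the dashed line is the floor of 78.9 units; Vegfa, Vegfb and Epas1 drop on both diets, and Arnt lies under the floor.

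Among the ligands, the probe set that represents Vegfa read 3156 units in control sham, 737 in control denervated, 3391 in genistein sham and 814 in genistein denervated muscle. Both sham pools were far above both denervated pools, and the diets lay close together. The log2 ratio was -2.10 for the control diet and -2.06 for genistein, and 97 of 10755 and 100 of 10810 measured genes had a lower ratio. A second Vegfa probe set read 623, 280, 682 and 193 units in the same order. It also separated sham from denervated muscle, with smaller ratios of -1.16 and -1.82.

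Vegfb, a ligand tied to fat handling in oxidative muscle, read 3173 units in the control sham pool and 973 in the control denervated pool. On genistein it read 2574 units in sham and 820 in denervated muscle. The pools again separated by surgery, with a log2 ratio of -1.71 for the control diet and -1.65 for genistein. Vegfb has 1 probe set, so these ratios have no second reading.

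Pgf, the placental growth factor, stood at the limit of measurement. Its representing probe set read 16 units in control sham and 72.6 in genistein sham muscle, both under the floor, and 82.0 and 105.8 units in the denervated pools. Against the floor it was at least 1.04-fold higher after denervation without genistein and at least 1.34-fold higher with it. Its other probe set was above the floor only in genistein denervated muscle, at 103.4 units.

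Among the alpha subunits, Epas1 read 4440 units in the control sham pool, 1462 in the control denervated pool, and 5250 and 2339 units in the matching genistein pools. Both denervated pools were below both sham pools, with log2 ratios of -1.60 and -1.17. A second Epas1 probe set lay under the floor on all 4 arrays, between 4.3 and 46.7 units, and gave no ratio. Under scaling to the hybridisation controls the genistein ratio became -0.68, inside 2-fold, where the median of all genes was 0.48. With the mean of both probe sets, the dim one included, it was -0.47.

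Hif1a read 3085 and 1904 units in control sham and denervated muscle and 3485 and 2245 units on genistein. The order of the pools was the same as for Epas1, with smaller ratios of -0.70 and -0.63. Arnt, the shared partner, read 9.4 to 67.4 units and was below the floor on all 4 arrays, so no level or ratio is given.

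Among the genes that act on the alpha subunits, Egln1, the main prolyl hydroxylase, read 2455 units in the control sham pool and 1558 in the control denervated pool. On genistein it read 2824 and 1449 units. The log2 ratios were -0.66 and -0.96, and the genistein ratio passed 2-fold at -1.01 under quantile normalization and at -1.21 with the mean of probe sets. Its other probe set was under the floor on every array. Egln3, a hydroxylase that is itself a HIF target, read 2889 and 2449 units on the control diet and 2858 and 2226 on genistein. Its ratios of -0.24 and -0.36 were no larger than the SD between probe sets. Under hybridisation-control scaling they changed sign, to 0.13 and 0.12, where the medians of all genes were 0.35 and 0.48. Vhl, which marks the alpha subunits for degradation, read 675 and 890 units on the control diet and 706 and 949 on genistein. Its ratios of 0.40 and 0.43 were higher in both denervated pools under each setting tried, and slightly above that SD.

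Adm encodes adrenomedullin, a vasodilator peptide and a known HIF target. It read 83.6 units in control sham, 109.2 in control denervated, 85.2 in genistein sham and 187.0 in genistein denervated muscle. The sham readings were just above the floor, and the genistein denervated pool was the highest. The log2 ratio was 0.39 on the control diet and 1.13 on genistein. With the floor at the 60th percentile, 217.5 units, Adm was not measured.

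**Figure D2:**
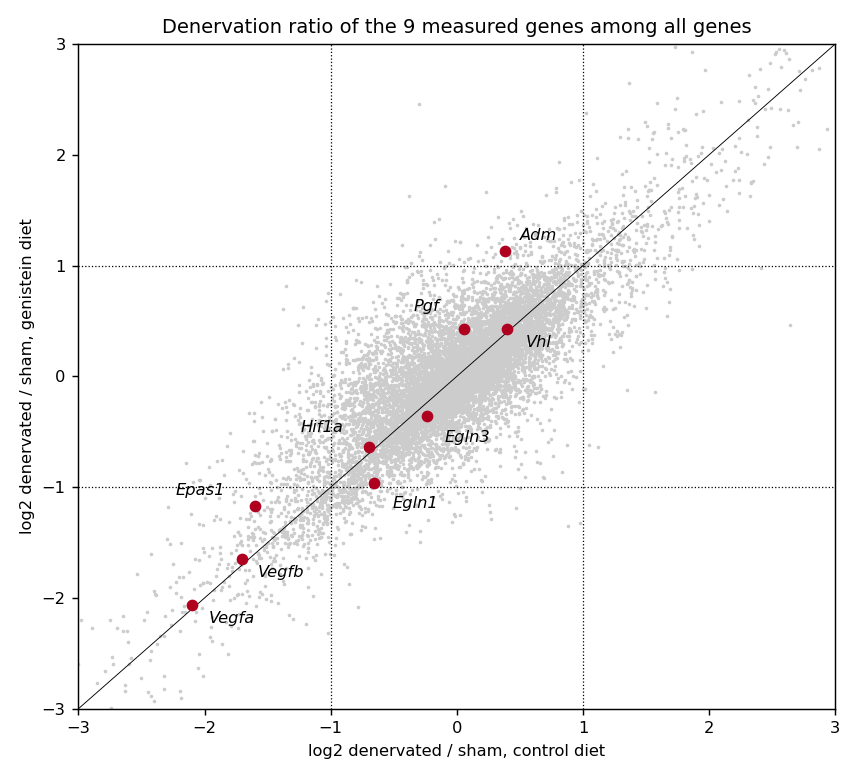
The log2 ratio of denervated to sham signal on the control diet (x axis) and on genistein (y axis), with all genes measured in both as grey dots and the 9 measured genes in red. Dotted lines mark 2-fold, the solid line marks equal ratios, and 78 of 10414 genes lie beyond the axes; Vegfa, Vegfb and Epas1 sit below 2-fold on both axes and Adm above 2-fold on the y axis only.

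Scaling moved these ratios together. Under scaling to the hybridisation controls added to each sample, the median of all genes after denervation became 0.35 on the control diet and 0.48 on genistein, and the log2 ratios of Vegfa became -1.73 and -1.58. Relative to those medians they lay as low as before. Other values under this scaling, above and below, are to be read beside the same medians. Over all settings tried, Vegfa ranged from -2.12 to -1.63 on the control diet and from -2.11 to -1.58 on genistein. Vegfb ranged from -1.73 to -1.34 and from -1.71 to -1.17, so both kept at least 2-fold in each setting.

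In sham muscle the diet ratios of these genes were small, as were those of nearly all genes. Of the 8 measured, 0 were at least 2-fold apart in either direction, where 0.324% of all genes were higher, 0.287% lower and 0.61% either. The log2 ratios of genistein to control ran from -0.30 for Vegfb to 0.24 for Epas1, with a median of 0.08 against 0.00 for all genes. With the mean of its probe sets, the one under the floor included, Epas1 was at -1.60. Hif1a was at 0.18, Egln1 at 0.20, Vegfa at 0.10, Vhl at 0.06, Adm at 0.03 and Egln3 at -0.02. Only Vegfb exceeded the SD of 0.27 between probe sets. At 1.5-fold 0 were higher, against 2.67% of all genes, and 0 were lower, against 2.5%.

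In denervated muscle Adm and Epas1 read higher on genistein than on the control diet. Adm was 1.71-fold higher (log2 0.78) and Epas1 1.60-fold higher (0.68), and 10166 and 10010 of 10479 genes had a lower ratio. Of the 9 measured genes 0 passed 2-fold, where 1.02% of all genes were higher and 1.15% past it in either direction, and 2 were at least 1.5-fold higher, where 6.22% did. Pgf followed at 0.37 and Hif1a at 0.24. Vegfa was at 0.14 on its representing probe set and at -0.54 on the other, so the probe sets disagreed in sign, and their mean gave -0.20. Vhl was at 0.09 (-0.04 under median scaling), Egln1 at -0.11 (0.02 under hybridisation-control scaling), Egln3 at -0.14 and Vegfb at -0.25. The median was 0.14 against 0.00 for all genes. With the mean of its probe sets Epas1 was at -1.01, a value that takes in the probe set under the floor.

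**Figure D3:**
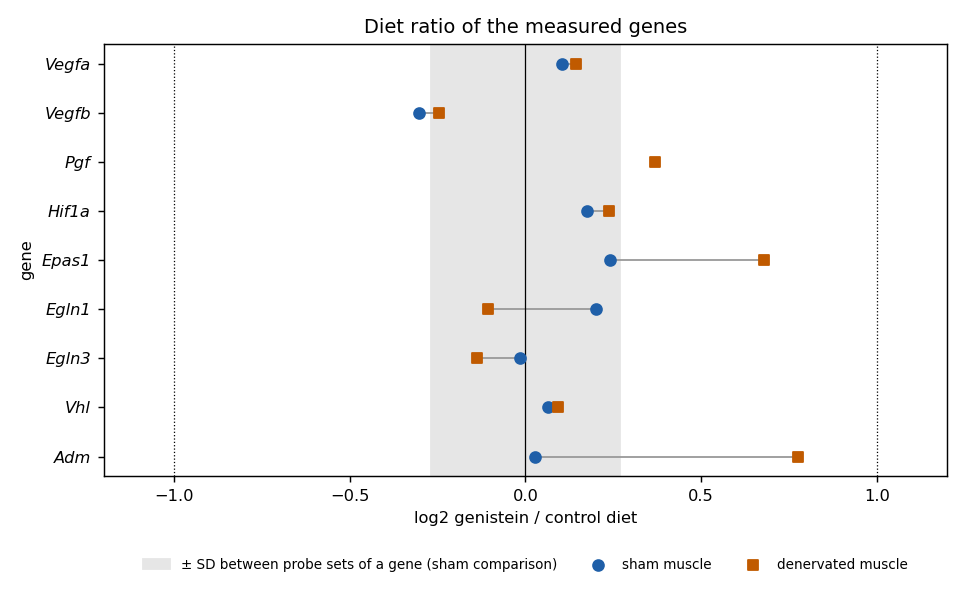
The log2 ratio of genistein to control diet (x axis) for each measured gene, blue circles for sham and orange squares for denervated muscle, 1 pair of arrays per point. The grey band is ± the SD of 0.27 between probe sets in the sham comparison and dotted lines mark 2-fold; Epas1 and Adm in denervated muscle lie farthest to the right, at 0.68 and 0.78.

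The denervation ratio on genistein minus that on the control diet uses the same 4 readings. It was 0.75 for Adm, 0.44 for Epas1 and -0.31 for Egln1, beside an SD of 0.34 between probe sets. For Vegfa, Vegfb, Hif1a and Vhl it lay between 0.03 and 0.06, and for Egln3 it was -0.12. Under median scaling the values of those 4 genes turned to between -0.08 and -0.05. On the other Vegfa probe set the difference was -0.66, and with the mean of its probe sets it was -0.31. The median over the 8 genes measured on every array was 0.05, and -0.06 under median scaling. These differences were not tested.

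Kdr and Flt1, receptors for these ligands, also read lower after denervation on the control diet, and they were listed with other vessel receptors and ligands. Of 8 measured receptors, co-receptors and other ligands, 5 were at least 2-fold lower on the control diet and 2 of 9 on genistein. The 5 were Kdr, Flt1, the ligand Vegfc, and Tek and Tie1, which are not VEGF receptors. On genistein the 2 were Flt1 and Angpt2. Vegfc, Tek, Tie1 and Angpt2 were named after their values were seen. The median log2 ratios of the list were -1.03 and -0.40 (0.08 on genistein under hybridisation-control scaling). The count of 5 was 3 under median scaling and 1 under hybridisation-control scaling. The latter scaling put the median of all genes at 0.35 on the control diet and 0.48 on genistein. Kdr, the main signalling receptor for VEGF-A, read 1010 and 282 units on the control diet and 985 and 530 on genistein. Its log2 ratios were -1.84 and -0.89, so the genistein denervated pool lay between the sham pools and the control denervated pool. Flt1, the receptor shared by VEGF-A, VEGF-B and placental growth factor, was at -1.02 and -1.03, with its denervated readings of 115 and 109 units near the floor. The co-receptor Nrp1 was at -0.99 and -0.40. Its 2 probe sets disagreed in sign on the control diet, at -0.99 and 0.08, and over the settings its ratio reached -0.45 there and 0.08 on genistein. With the mean of all probe sets Kdr was at -0.12 on the control diet, and over the settings Flt1 ranged from -1.02 to -0.10 there.

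In denervated muscle on genistein the median of 8 genes of this receptor and ligand list against the control diet was 0.61, with 7 above 0 and 0 past 2-fold. Kdr was at 0.91 and Nrp1 at 0.69, while Flt1 was at -0.09. In sham muscle the median of 9 was -0.04. Beside these, the representing probe set of Vegfa differed by 0.14 and 0.10 between the diets.

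Adrenomedullin acts through the receptor encoded by Calcrl with an accessory protein from Ramp2 or Ramp3, and Ramp1 makes the same receptor bind CGRP. Of the 4 genes of this group measured after denervation on each diet, 1 was at least 2-fold lower, and that was Ramp1 in both, with log2 ratios of -4.18 and -3.80. Ramp1 read 3846 and 212 units on the control diet and 4012 and 289 on genistein. Ramp2 was at -0.73 and -0.15 (0.33 on genistein under hybridisation-control scaling, beside a median of 0.48 for all genes). Calcrl was under the floor in both control diet pools and at 124.0 and 119.9 units in the genistein pools. In denervated muscle the diet ratio of 5 genes of this group had a median of 0.44, with Ramp2 at 0.60.

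Of 14 measured partners, hydroxylases and degradation genes, 0 passed 2-fold after denervation on either diet, with medians of 0.17 and 0.00. Cul2, the scaffold of the ubiquitin ligase that holds the Vhl protein, was at -0.98 and -0.68, and Egln2, another prolyl hydroxylase gene, at 0.36 and 0.33; both were named after their values were seen. Under quantile normalization 1 gene was at least 2-fold lower on the control diet. Under hybridisation-control scaling 1 was at least 2-fold higher on each diet. The medians were then 0.54 and 0.48, beside 0.35 and 0.48 for all genes. In sham and denervated muscle the diet medians of this list were -0.07 and -0.19.

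Genes listed as HIF targets differed in both directions under the deposited scaling. Outside glycolysis, 3 of 26 were at least 2-fold higher and 4 lower on the control diet, and 4 higher and 3 lower on genistein. The medians were -0.32 and 0.11. Under hybridisation-control scaling the medians were 0.05 and 0.60, with 4 higher and 3 lower on the control diet and 7 higher and 1 lower on genistein. The medians of all genes under that scaling were 0.35 and 0.48. Tfrc, the transferrin receptor for iron uptake, was at -3.87 and -4.01, and Pdk1, which restrains pyruvate entry to mitochondria, was at -1.19 and -1.32. Hmox1, the haem oxygenase of stress responses, was at 1.56 and 1.79, and Mxi1, an antagonist of Myc, at 1.68 and 1.5. The other Mxi1 probe set was at 1.28 and 0.67. Among 17 targets of glucose and lactate metabolism, 1 was at least 2-fold higher and 3 lower on the control diet, and 0 and 1 on genistein. Their medians were -0.49 and -0.27. Under hybridisation-control scaling they were -0.13 and 0.21, with 1 higher and 1 lower on the control diet and 3 higher and 1 lower on genistein. The lactate exporter Slc16a3 led them, at -4.50 and -5.12. Its denervated readings of 103 and 87.2 units were near the floor, and over the settings its ratios reached -3.42 and -3.81. The diet medians of both target lists lay between -0.08 and 0.07 in sham and denervated muscle.

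Of 8 regulators of VEGF in muscle measured on the control diet 3 were at least 2-fold lower and 0 higher. Of 9 on genistein 2 were lower and 1 higher, and the medians were -0.53 and -0.49. The list was not limited to inducers of VEGF. Thbs2, at -1.40, was among the 3 lower on the control diet, and the 1 higher on genistein was Sema3f, at 1.04. Both were named after their values were seen. Under hybridisation-control scaling the medians were -0.17 and -0.03, beside 0.35 and 0.48 for all genes. The counts were then 3 lower and 1 higher on the control diet and 2 lower and 1 higher on genistein. Ppargc1b, a coactivator of mitochondrial genes, was at -2.01 and -1.58. Esrra, the orphan receptor through which PGC-1 coactivators can induce Vegfa, read 1188 and 451 units on the control diet and 1361 and 417 on genistein, at -1.40 and -1.71. Ppargc1a was at -0.57 and -0.78 after denervation, and higher on genistein by 0.54 in sham and 0.32 in denervated muscle. Its 3 probe sets ran from -0.57 to -0.07 after denervation on the control diet and from -0.83 to -0.69 on genistein. In sham and denervated muscle the diet medians of the list were -0.04 and 0.02.

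**Figure D4:**
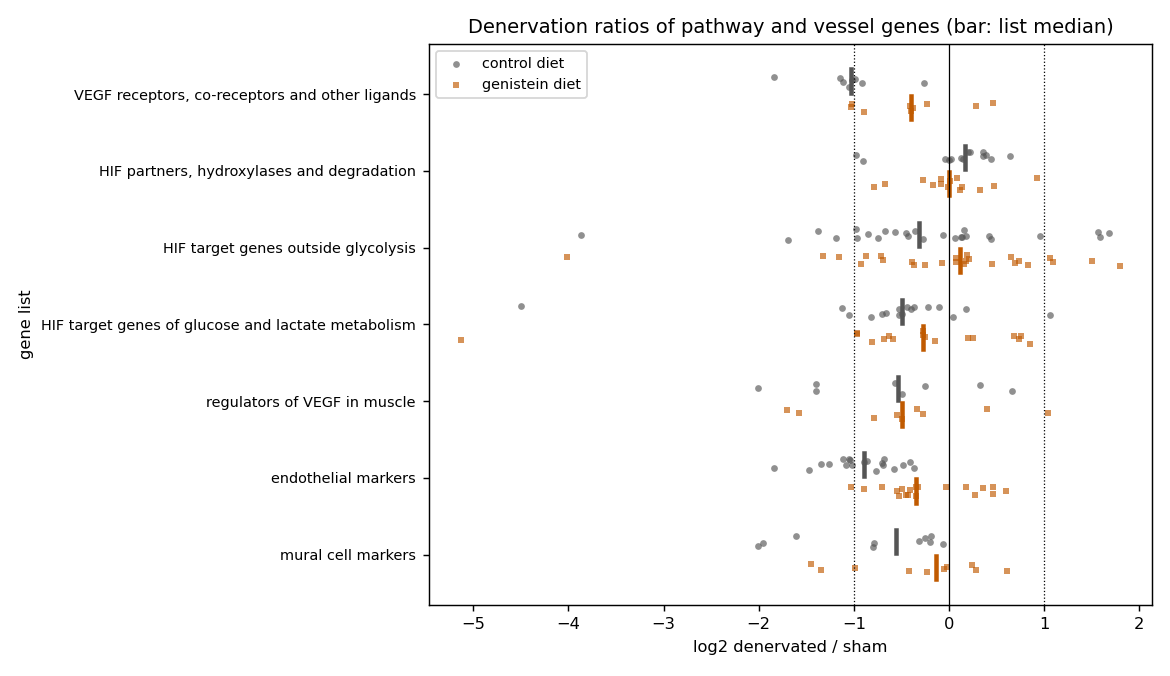
The log2 ratio of denervated to sham signal (x axis) for each measured gene of 7 lists, grey circles for the control diet and orange squares for genistein, with the list median as a bar and 2-fold as dotted lines. Genes of the receptor and ligand list and endothelial markers lie mostly left of 0 on the control diet, with medians of -1.03 and -0.89. They lie nearer 0 on genistein, at -0.40 and -0.35. Tfrc and Slc16a3 are the far left points of the target lists.

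Whole muscle holds vessels as well as fibres, and in pooled tissue fewer cells of a type and less RNA per cell cannot be told apart. All 19 endothelial markers on the array were above the floor on all 4 arrays, and the list shares 4 genes with the receptor list. After denervation 9 of 19 were at least 2-fold lower on the control diet and 1 of 19 on genistein, with medians of -0.89 and -0.35 (0.13 on genistein under hybridisation-control scaling). The count of 9 was 5 under median scaling and 2 under hybridisation-control scaling. Their summed signal was 10470 units in control sham, 5201 in control denervated, 10659 in genistein sham and 8542 in genistein denervated muscle. In denervated muscle 18 of 19 read higher on genistein, 2 of them at least 2-fold, with a median of 0.74. Epas1, which endothelial cells also express, differed by 0.68 there. The part of endothelial content in the ratios of the members and the receptors was not tested.

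Markers of other cells were read as well, and their directions differed. The 10 mural cell markers had medians of -0.55 and -0.14 after denervation (0.34 on genistein under hybridisation-control scaling), and summed to 9851, 7067, 10088 and 7597 units in the order control sham, control denervated, genistein sham and genistein denervated. The 9 fibroblast markers had medians of -1.35 and -0.50 (-0.98 and -0.01 under hybridisation-control scaling) and summed to 58099, 24964, 58544 and 42191 units. The macrophage and leukocyte markers had medians of -0.40 over 9 and -0.07 over 10 (0.46 on genistein under hybridisation-control scaling), and summed to 7351, 4277, 7861 and 7525 units. In denervated muscle the diet medians of these 3 lists were 0.39, 0.72 and 0.92. Adipocyte markers summed to 7326, 3949, 6802 and 6401 units, with 3 of 5 at least 2-fold higher in denervated muscle on genistein than on the control diet. Fabp4 made up most of that sum, at 6009 units in control sham muscle. After denervation 0 of 4 adipocyte markers were at least 2-fold higher and 1 lower on the control diet. On genistein 3 of 5 were higher and 0 lower, with a median of 1.06, although the sum was lower. Erythrocyte markers summed to 15741, 10520, 7861 and 6640 units and Schwann cell markers to 3286, 3372, 3408 and 4459. Single genes carried much of several sums. In control sham muscle Abcc9 (mural) read 6164 units, Lyz2 (macrophage) 5067, Hbb (erythrocyte) 15169 and Pmp22 (Schwann) 2894.5. The part of these cells in the results was not tested.

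The genes whose pattern over the 4 arrays lay nearest to each member that passed 2-fold were found by the distance between log2 signals centred on each gene's mean, over 9362 genes above the floor on all arrays. Nearest to Vegfa were Mpc1, a subunit of the mitochondrial pyruvate carrier, at a distance of 0.08, then Dbi at 0.11 and Mllt11 at 0.13. Mpc1 read 21462, 4790, 21657 and 5137 units in control sham, control denervated, genistein sham and genistein denervated muscle. Nearest to Vegfb were Cav3, the muscle caveolin, at 0.04, then Abra at 0.10 and Gamt, an enzyme of creatine synthesis, at 0.11. Cav3 read 4026, 1193, 3255 and 1013 units, lower on genistein in both kinds of muscle as Vegfb was. Nearest to Epas1 were Slc25a13 at 0.10, Cyp26b1, which degrades retinoic acid, at 0.14 and Plat, the tissue plasminogen activator, at 0.14. Plat read 661, 225, 704 and 339 units. Nearest to Adm were Magi3 at 0.06, Zdhhc18 at 0.07 and Cd200 at 0.10. Vegfb stood at rank 118 from Vegfa, at 0.56, and Epas1 at rank 245, at 0.80. With 4 arrays many genes lie close to any pattern.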

How the data were processed

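Each array's deposited values are linear intensities, 1 for every probe set, made with GCOS version 1.1 per the submitters' processing notes. The sources used here give neither the scaling target nor a genome build. The mean after trimming 2% at each end was 500.2 on every array, so intensities were used as deposited. Groups came from the sample titles. Of 31042 probe sets without the 57 controls, 20826 had 1 gene symbol, 436 several and 9780 none listed, and 20758 identifiers matched GRCr8 RefSeq. Where a gene had several probe sets, the brightest by mean log2 signal stood for it. Signals under the 40th percentile were raised to it before log2, and a gene was measured in a comparison when 1 of its arrays was above. With 1 array per group no test was run, and the number of arrays limits the precision. Genes were counted at 2-fold. The members and 14 gene lists were chosen with earlier results of these data known. Named by rule were all members, Kdr, Flt1, Nrp1, Calcrl, Ramp1, Ramp2, Ppargc1a, Esrra, up to 4 genes per list past 2-fold on both diets, and the 3 nearest patterns; for cell marker lists sums and medians stand in. The counting was tested on simulated data with large differences in bright probe sets and little noise. That checks the code and says nothing of genes near the floor. Promoters came from the RefSeq table of GRCr8. Python 3.11.15, NumPy 2.4.6 and pandas 2.3.3 were used.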

Additional observations from a re-analysis of the deposited data

Results flagged for a closer look

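For 2 probe sets of the members the genistein ratio had opposite signs in sham and denervated muscle, with 1 array on each side. For the dimmer Vegfa probe set the ratio in denervated minus that in sham muscle was -0.66 on the log2 scale (0.13 in sham and -0.54 in denervated muscle), while the representing probe set of Vegfa had 0.10 and 0.14. For Egln1 it was -0.31 (0.20 and -0.11), and the denervated value was 0.02 under hybridisation-control scaling. Neither difference was tested.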

How the results depend on the processing

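No paired analysis was possible because each group is 1 array. With 1 array a group the readings limit every ratio, and those near 78.9 units (Pgf, Adm, Arnt) are the least certain. The scaling target is not given, and the trimmed mean was 500.2 on every array. Of 201 member ratios recomputed under an alternative, 194 kept their sign and 7 did not. Part of this was fixed in advance. A higher floor leaves ratios of bright genes unchanged, and the mean over a gene with 1 probe set is that probe set. The count of members at least 2-fold lower was 3 on the control diet in each setting at 2-fold, and 2 to 4 on genistein. At 1.5-fold 5 members were lower on each diet, and 2 higher on genistein in denervated muscle. Without a floor, with 16 units added before log2, 2 members were higher after denervation on the control diet and 2 higher on genistein in sham muscle. With the floor both counts were 0. In both cases they were Pgf and Arnt, which read 16 and 9.4 units in control sham muscle, under the floor, where values have no order. With the floor at the 60th percentile 0 were higher after denervation on genistein. With the mean of probe sets 1 member, Epas1, was lower on genistein in sham and 1, again Epas1, in denervated muscle, and the median in denervated muscle was -0.14. Hybridisation-control scaling moved the members' medians after denervation to -0.29 and -0.15, and those of all genes to 0.35 and 0.48.

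Counts of all genes at 2-fold moved as follows. After denervation on the control diet, 542 higher and 821 lower became 1261 and 391 under hybridisation-control scaling and 898 and 1319 without a floor. Higher genes were 39.8% of those past 2-fold there, 76.3% under hybridisation-control scaling. On genistein, 536 and 710 became 1784 and 262 under that scaling (43.0% and 87.2% higher) and 884 and 1092 without a floor. For the diet in sham muscle, 35 higher and 31 lower became 5 and 3 at the 60th percentile floor, 469 and 399 without a floor, 66 and 54 with the mean of probe sets, and 20 lower under hybridisation-control scaling. In denervated muscle, 107 higher and 13 lower became 61 and 27 under median scaling, 31 and 2 at the higher floor and 466 and 293 without a floor, and 223 higher under hybridisation-control scaling. The share of higher genes there was 89.2%, 69.3% under median scaling and 79.1% under quantile normalization.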
